A study of Homo sapiens with 22 samples.

Results

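The enzymes described are PFKL, TPI1, GAPDH, PGK1 and ENO2, which act at 5 steps of glycolysis, 5 of the 7302 genes named in the series and 7 of its 14257 probes. They were picked from earlier results of the same arrays, because several of them were lower in Mia-PaCa-2 cells given Amblyomin-X, and every probe with a single symbol of each enzyme was taken whatever its value. All 5 enzymes had a probe in Mia-PaCa-2 (6 of 11606 probes), and PFKL and GAPDH had one in SK-MEL-28 (3 of 7975 probes). Mia-PaCa-2 is a line from a human pancreatic carcinoma and SK-MEL-28 one from a human melanoma, both established and grown in RPMI 1640 medium with foetal bovine serum. The 4 groups were Mia-PaCa-2 cells given 1 µM Amblyomin-X for 4 h (6 arrays), untreated Mia-PaCa-2 cells (6 arrays), SK-MEL-28 cells given 1 µM Amblyomin-X for 4 h (5 arrays) and untreated SK-MEL-28 cells (5 arrays). Amblyomin-X is a recombinant protein from a tick, of the Kunitz type of protease inhibitors, and the control cells are labelled untreated, with no vehicle named. RNA from each preparation was read in 1 colour on a CodeLink whole genome array. The values below are normalized intensities, which have no absolute unit, so levels are set side by side only for 1 probe within 1 line. The labels do not say whether the preparations came from separate cultures, so every p-value given reflects the spread among these arrays, which may be technical. In bulk RNA, fewer cells of a type and less RNA per cell cannot be told apart.

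Glycolysis turns glucose into pyruvate in the cytosol and yields ATP without oxygen, and many tumour cells run it at a high rate even when oxygen is present. PFKL is the liver-type subunit of phosphofructokinase, which catalyses the committed step of the pathway. TPI1 interconverts the triose phosphates, GAPDH oxidises glyceraldehyde 3-phosphate and makes NADH, PGK1 passes a phosphate to ADP, and ENO2, the neuronal enolase, forms phosphoenolpyruvate. Transcription of several of these genes is raised by the hypoxia-inducible factors, and GAPDH is often used as a reference gene for other measurements.

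Not every array looked like its labelled line alone. Untreated Mia-PaCa-2 arrays 4 and 5 correlated by 0.817 to 0.818 with the mean profile of the Mia-PaCa-2 arrays and by 0.786 to 0.787 with that of the SK-MEL-28 arrays, over 5195 probes. The libraries labelled SK-MEL-28 treated arrays 3 and 5 correlated by 0.784 to 0.827 with the Mia-PaCa-2 profile and by 0.71 to 0.775 with the SK-MEL-28 profile. On the other 18 arrays the correlation with the array's own line was 0.897 to 0.97 and that with the other line 0.407 to 0.471. These 4 arrays lie on the untreated side in one line and on the treated side in the other, so each change of the 5 enzymes is given with and without them. Median intensities before normalization were 74.3 to 118 on treated and 68.1 to 156 on untreated Mia-PaCa-2 arrays, and 66.5 to 165 on treated and 55.4 to 125 on untreated SK-MEL-28 arrays. Of 20 pancreatic and epithelial markers 7 had a probe in Mia-PaCa-2. The log2 means were 13.45 for KRT18 (arrays with a value only), 9.68 for SOX9 and 8.18 for KRT8. KRT19 was at 7.315, LCN2 at 7.11, CLDN4 at 7.105 and MUC1 at 6.67. The melanocyte markers RAB27A and SLC45A2 were at 8.09 and 7.30 in the same line. Levels of different probes are not set side by side here, so these values do not settle the pancreatic label. None of 20 melanocyte markers had a probe with a single symbol among the SK-MEL-28 values analysed here, so the melanoma label was not checked in that way.

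In Mia-PaCa-2, 5 of the 6 probes had a lower mean in treated cells, which is the contrast the enzymes were picked from and is given as a description. The probes of PGK1, GAPDH, PFKL and ENO2 were lower by 0.88 to 1.50 on the log2 scale, 1 probe of TPI1 was lower by 0.40 and the other was higher by 0.24. Over all probes of the line 48.8% had a change below 0 (49.4% without untreated arrays 4 and 5), and the median change was 0.0125. No probe of the line passed an adjusted p of 0.05 by limma with Benjamini-Hochberg adjustment (0 of 11604, or 0%), while 1113 (9.59%) had an unadjusted p under 0.05. Without untreated arrays 4 and 5 the count was again 0 (0%), with 636 (5.48%) at an unadjusted p under 0.05.

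**Figure D1:**
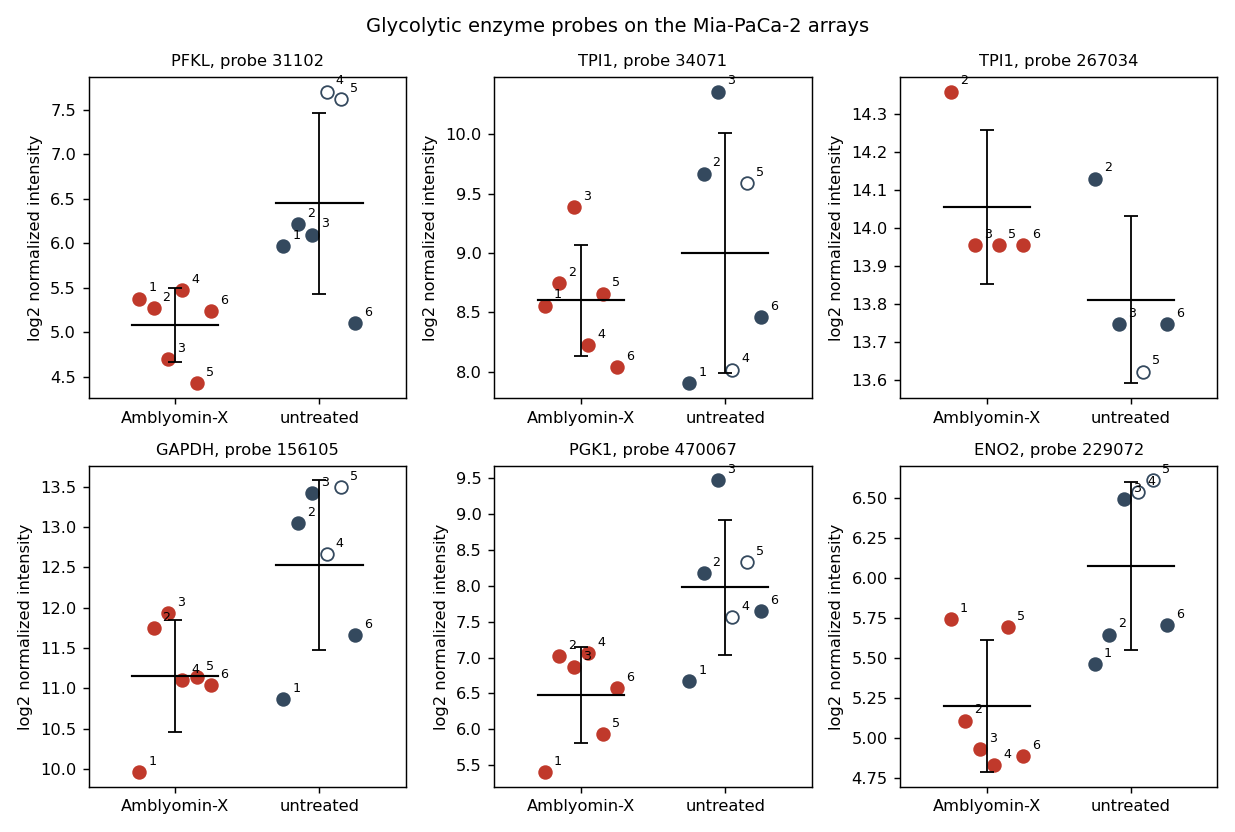
Log2 normalized intensity of the 6 enzyme probes on each Mia-PaCa-2 array, with Amblyomin-X arrays on the left and untreated arrays on the right of each panel. Numbers are array numbers, open circles are untreated arrays 4 and 5, and lines with bars are the mean and SD; PFKL, GAPDH, PGK1 and ENO2 sit lower in the treated arrays with overlap, and the TPI1 probe 267034 is missing on 2 arrays of each group.

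Phosphofructokinase stands first among these steps. PFKL (probe 31102) had 41.6, 38.8, 25.9, 44.4, 21.5 and 37.7 on treated arrays 1 to 6, against 62.5, 74.3, 68.5, 209.0, 197.1 and 34.5 on untreated arrays 1 to 6. All 6 treated arrays were below the untreated mean and 5 of the 6 untreated arrays were above every treated one, while untreated array 6 lay inside the treated range. The log2 mean was 5.08 ± 0.42 in treated and 6.45 ± 1.02 in untreated cells (SD, n = 6 each), a change of -1.37 ± 0.39 (SE), or a ratio of 0.387. The 2 highest values, 209.0 and 197.1, were those of untreated arrays 4 and 5, against 34.5 to 74.3 on the other untreated arrays. Without them the change was -0.76 ± 0.27. The probe was dim in Mia-PaCa-2, between ranks 10530 and 11521 of 11606 from the brightest on treated arrays and 2860 and 11202 on untreated arrays, where differences in background weigh most. With an offset of 50 added to each intensity before the log, the change was -0.77.

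TPI1 had 2 probes, whose changes had opposite signs and were each close to their standard error. Probe 34071 had 376.2, 429.9, 668.6, 299.2, 403.4 and 262.4 on treated arrays 1 to 6, against 239.1, 813.4, 1314, 258.8, 771.0 and 351.9 on untreated arrays 1 to 6. On this probe 5 treated arrays were below the untreated mean, 3 untreated arrays were above every treated one, and the untreated group spanned the whole treated range. Its log2 mean was 8.60 ± 0.47 in treated and 8.999 ± 1.01 in untreated cells (SD, n = 6 each), a change of -0.40 ± 0.39 (SE) that was close to its standard error. Without untreated arrays 4 and 5 the change was -0.50 ± 0.42, and without untreated array 3 alone it was -0.13.

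Probe 267034 of TPI1 was among the 8 brightest probes on all 12 Mia-PaCa-2 arrays, at rank 4 to 6 on treated and 2 to 8 on untreated arrays. It had no normalized value on treated arrays 1 and 4 nor on untreated arrays 1 and 4. Its normalized values were 21001, 15880.1, 15880.1 and 15879.7 on treated arrays 2, 3, 5 and 6, against 17925, 13759.8, 12618 and 13759.8 on untreated arrays 2, 3, 5 and 6. The change was 0.24 ± 0.23 (SE, 4 arrays each), and 0.18 ± 0.21 without untreated array 5, the one of arrays 4 and 5 that had a value. The normalized value followed the probe's rank among the probes that kept a value on the array. It was 21001 at rank 1 (treated array 2), 17925 at rank 2 (untreated array 2), 15879.7 to 15880.1 at rank 3 (treated arrays 3, 5 and 6), 13759.8 at rank 4 (untreated arrays 3 and 6) and 12618 at rank 5 (untreated array 5). Since that rank depends on how many brighter probes have no value, the normalized change of this probe is not a measure of its brightness alone.

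The per-sample intensities hold the values that the table lacks. Divided by each array's median, probe 267034 read 166, 128, 139, 124, 160 and 133 times the median on treated arrays 1 to 6, against 152, 107, 119, 99.0, 108 and 153 times on untreated arrays 1 to 6. The groups overlapped, with untreated arrays 1 and 6 in the upper part of the treated range and the other 4 below it. On this scale the change was 0.22, with the bright values filled in at the array maximum it was 0.16, and with the per-sample intensities quantile normalized it was 0.01. On all 12 arrays the number of brightest probes without a normalized value equalled the number of blank intensities in the per-sample file, from 1 to 14. The most blanks were on treated array 4 (13) and untreated array 4 (14), followed by treated array 1 and untreated array 1 (7 each), which are the 4 arrays where this probe had no value. None of the other 5 enzyme probes in Mia-PaCa-2 lacked a value on any array.

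GAPDH (probe 156105) had 994.8, 3435, 3899, 2193, 2249 and 2109 on treated arrays 1 to 6, against 1863, 8468, 10995, 6484, 11514 and 3224 on untreated arrays 1 to 6. All 6 treated arrays were below the untreated mean, 4 untreated arrays were above every treated one, and untreated arrays 1 and 6 lay inside the treated range. The log2 mean was 11.15 ± 0.69 in treated and 12.52 ± 1.05 in untreated cells (SD, n = 6 each). The change was -1.37 ± 0.44 (SE), a ratio of 0.386, and -1.10 ± 0.49 without untreated arrays 4 and 5. GAPDH is a bright probe, at rank 65 to 511 on treated and 9 to 226 on untreated arrays, yet it had a normalized value on every array. The untreated arrays were spread from 1863 to 11514, and leaving out any 1 array gave changes from -1.70 to -1.13.

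PGK1 (probe 470067) had 42.3, 130.1, 116.6, 133.4, 61.0 and 95.2 on treated arrays 1 to 6, against 102.0, 288.7, 708.2, 188.9, 322.9 and 200.6 on untreated arrays 1 to 6. All 6 treated arrays were below the untreated mean, 5 untreated arrays were above every treated one, and untreated array 1 was within the treated range. The log2 mean was 6.48 ± 0.67 in treated and 7.98 ± 0.94 in untreated cells (SD, n = 6 each), a change of -1.50 ± 0.40 (SE) or a ratio of 0.353. Without untreated arrays 4 and 5 the change was -1.51 ± 0.48, and with an offset of 50 it was -1.12. Over every alternative that left out 1 array the change stayed between -1.76 and -1.20. Of the 4 enzymes whose probes were lower by more than 0.8, PGK1 is the one whose change was as large without the 2 arrays that resembled both lines.

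ENO2 (probe 229072) had 53.6, 34.5, 30.5, 28.5, 51.7 and 29.6 on treated arrays 1 to 6, against 44.1, 50.04, 90.0, 92.7, 97.4 and 52.2 on untreated arrays 1 to 6. All 6 treated arrays were below the untreated mean, 4 of them were below every untreated array, and treated arrays 1 and 5 overlapped the lower untreated ones. The log2 mean was 5.199 ± 0.41 in treated and 6.07 ± 0.52 in untreated cells (SD, n = 6 each). The change was -0.88 ± 0.26 (SE), and -0.63 ± 0.25 without untreated arrays 4 and 5, which with untreated array 3 held the 3 highest values. ENO2 was as dim as PFKL, at rank 9636 to 11387 of 11606 on treated arrays, and with an offset of 50 its change was -0.44.

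**Figure D2:**
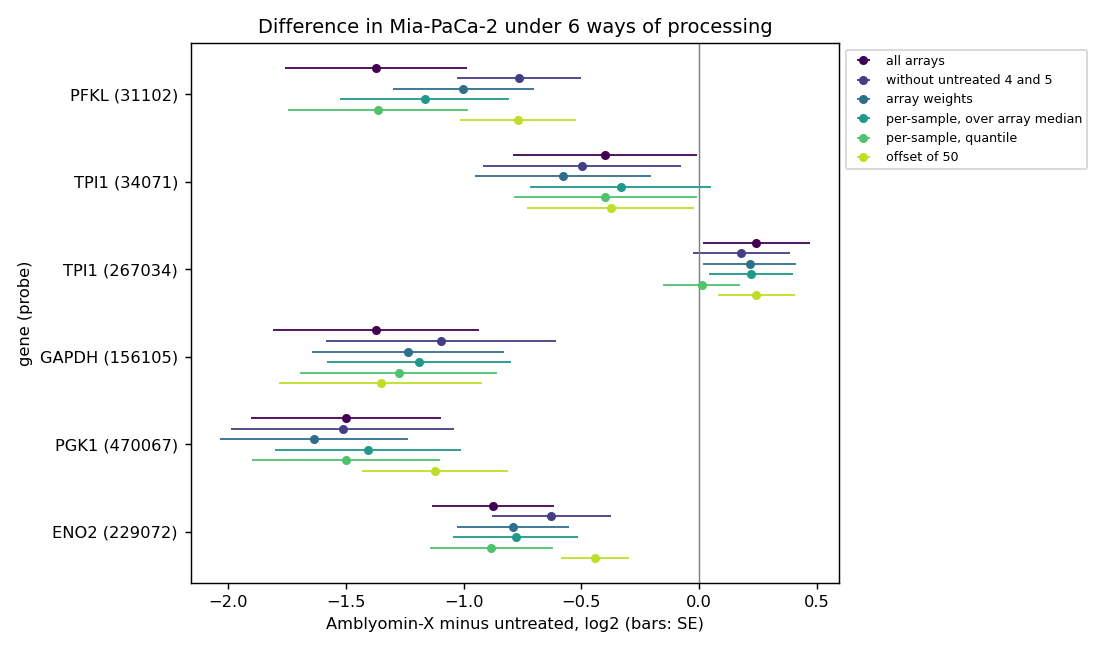
Change in Mia-PaCa-2 (Amblyomin-X minus untreated, log2, bars are SE) of the 6 enzyme probes under 6 ways of processing. PGK1 and GAPDH stay between -1.64 and -1.10, PFKL and ENO2 come closer to 0 with an offset of 50 and without untreated arrays 4 and 5, and the 2 probes of TPI1 lie on opposite sides of 0.

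Whether the enzymes varied together from array to array within the groups is a measure that picking them did not use. Deviations from each group's mean were correlated over the 12 Mia-PaCa-2 arrays, with permutation p-values from 100000 shuffles within groups (two-sided) adjusted over 13 pairs of probes in both lines. GAPDH and PGK1 deviated together, with Pearson's r = 0.836 (permutation p = 0.00131, adjusted 0.017) and Spearman's rho = 0.713 (permutation p = 0.0135, adjusted 0.0877). Without the 2 arrays farthest from the GAPDH median, treated array 1 and untreated array 1, r was 0.629, and without untreated arrays 4 and 5 it was 0.89. Probe 34071 of TPI1 deviated with GAPDH by r = 0.731 (adjusted permutation p = 0.0857) and rho = 0.79 (adjusted 0.0877), a relation that missed the threshold. With PGK1 it had r = 0.705 (adjusted permutation p = 0.0857) and rho = 0.65 (adjusted 0.123), and r was 0.36 without untreated arrays 1 and 3. PFKL had r from -0.08 to 0.459 with the other enzymes. ENO2 had r = 0.459 with PFKL, 0.299 with TPI1 probe 34071, 0.287 with GAPDH and 0.0536 with PGK1. The last was -0.571 without untreated arrays 1 and 3. None of these pairs had an adjusted permutation p under 0.05, and 12 arrays cannot show that they varied apart. Arrays share their labelling and normalization, which enter every such correlation. The shuffles took the arrays of a group as exchangeable, yet GAPDH and PGK1 were both lowest on array 1 of each group. If arrays of the same number are paired, these permutation p-values may be too small. The share of all probe pairs with an r as high was not determined.

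**Figure D3:**
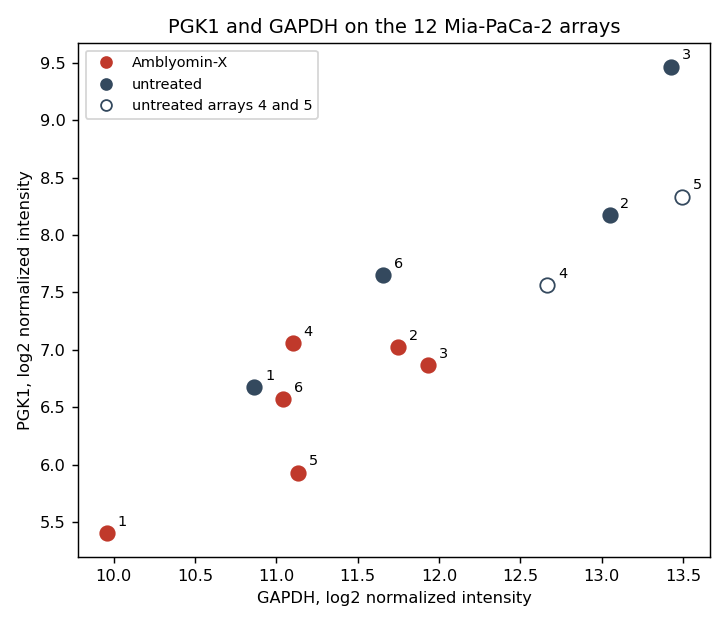
Log2 normalized intensity of PGK1 (vertical) against GAPDH (horizontal) on the 12 Mia-PaCa-2 arrays, with array numbers. Treated arrays lie toward the lower left and untreated arrays toward the upper right, with overlap. Untreated array 1 is within the treated range in both probes, and untreated array 6 in GAPDH alone. Treated array 1 is lowest in both probes, and untreated arrays 3 and 5 are at the top of the GAPDH range.

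The start regions shown are those of PGK1 and GAPDH, the pair whose r had an adjusted permutation p under 0.05, and of PFKL. PFKL had r = 0.328 with GAPDH and 0.101 with PGK1, and 12 arrays cannot show that it varied with neither. They are RefSeq windows of 300 bases on GRCh38.p14, around the gene's start, and all 3 are on the plus strand. PGK1 lies at chrX:78103998-78104297, GAPDH at chr12:6535014-6535313 and PFKL at chr21:44299803-44300102. Capitals mark ACGTG on either strand (CACGT when it is on the other strand), one form of the core bound by the hypoxia-inducible factors.
PGK1: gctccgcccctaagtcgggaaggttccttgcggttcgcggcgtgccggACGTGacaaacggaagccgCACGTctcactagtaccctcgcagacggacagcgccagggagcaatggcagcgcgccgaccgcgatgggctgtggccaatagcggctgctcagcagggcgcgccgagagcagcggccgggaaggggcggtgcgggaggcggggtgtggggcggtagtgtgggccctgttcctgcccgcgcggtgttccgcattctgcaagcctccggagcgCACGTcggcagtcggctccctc
GAPDH: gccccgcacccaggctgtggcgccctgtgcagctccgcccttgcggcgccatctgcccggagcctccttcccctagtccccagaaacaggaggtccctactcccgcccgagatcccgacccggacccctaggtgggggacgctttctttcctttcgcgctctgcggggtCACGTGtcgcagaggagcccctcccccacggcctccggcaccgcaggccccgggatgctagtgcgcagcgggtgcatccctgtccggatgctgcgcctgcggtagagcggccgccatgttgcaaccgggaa
PFKL: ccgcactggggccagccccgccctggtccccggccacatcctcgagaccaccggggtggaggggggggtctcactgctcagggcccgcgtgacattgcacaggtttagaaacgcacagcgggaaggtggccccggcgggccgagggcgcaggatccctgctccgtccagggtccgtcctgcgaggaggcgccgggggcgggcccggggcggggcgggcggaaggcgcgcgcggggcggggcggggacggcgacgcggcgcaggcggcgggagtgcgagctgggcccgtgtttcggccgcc
The PGK1 window held 3 copies of ACGTG, and the GAPDH window held 2 that overlap in the palindrome CACGTG. The PFKL window held 0 copies of ACGTG. The other form of the core, GCGTG, was held once each by the PFKL window, the PGK1 window and 1 of the TPI1 windows, and not by those of GAPDH and ENO2. The ENO2 window, at chr12:6914330-6914629, held 1 copy of ACGTG, and of both TPI1 windows 1 held a copy. Of 35116 such windows over all genes, 21.4% held ACGTG and 36.5% held GCGTG on at least 1 strand. These letters are a description of the windows, and the arrays did not measure binding.

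The probes whose levels over the 12 Mia-PaCa-2 arrays were most like those of each enzyme were looked up among 6867 probes with a single symbol and a value on every array. GAPDH was most like PCBP1, an RNA-binding protein (r = 0.978, and 0.968 without untreated arrays 4 and 5), YBX1, a cold-shock domain protein (0.968 and 0.961), and ACTG1, cytoplasmic gamma-actin (0.966 and 0.957). TPI1 probe 34071 was most like the splicing factor SRSF3 (0.978 and 0.981), HAX1 (0.963 and 0.963) and SRGN (0.952 and 0.944). PGK1 was most like PSAP, the precursor of the saposins (0.952 and 0.963), the lysosomal protease CTSA (0.946 and 0.94) and the integrin subunit ITGB1 (0.943 and 0.944). For these 3 enzymes the likeness was nearly as high without the 2 arrays. PFKL was most like the small GTPase RAB21 (0.945 and 0.845), TMEM167A (0.94 and 0.764) and the hair keratin KRT33B (0.931 and 0.711), and here the value was lower without the 2 arrays. ENO2 was most like ECE1, the endothelin-converting enzyme (0.895 and 0.849), BIN2 (0.891 and 0.872) and GIMAP6 (0.88 and 0.786). These are the highest values of a search over many probes and carry no test.

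The other enzymes of the pathway did not go one way in Mia-PaCa-2. Of 22 other glycolytic enzymes listed 8 had a probe, 4 above and 4 below 0, against 48.8% of all probes below 0. The median of the 8 enzymes was -0.14 and, without untreated arrays 4 and 5, 0.07. None had an adjusted p under 0.05 by limma over all probes, and 2 had an unadjusted p under 0.05, GPI and ALDOC, against 9.59% of all probes of the line. Without untreated arrays 4 and 5 it was again these 2, against 5.48%. GPI, which makes fructose 6-phosphate, had a change of -0.77 ± 0.32 (SE), and -0.93 without the 2 arrays. The aldolase ALDOC had one of -1.30 ± 0.42, and -0.94 without them. At the steps of GAPDH and ENO2, the sperm form GAPDHS was at 0.16 ± 0.30 (0.11 without the 2 arrays) and the major enolase ENO1 at 0.15 ± 0.22 (0.25 without them). HK2, the inducible hexokinase, was at 0.03 ± 0.24 (0.12 without them). PKM, the main pyruvate kinase, was at 0.41 ± 0.20 (0.30 without them), and PKLR at -0.31 ± 0.32 (0.03 without them). The 2 probes of LDHA, which makes lactate, had -0.34 ± 0.30 and -0.23 ± 0.22 (-0.26 and -0.16 without them). Adjusted p-values over all probes ran from 0.501 to 0.963 for these 8 enzymes.

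**Figure D4:**
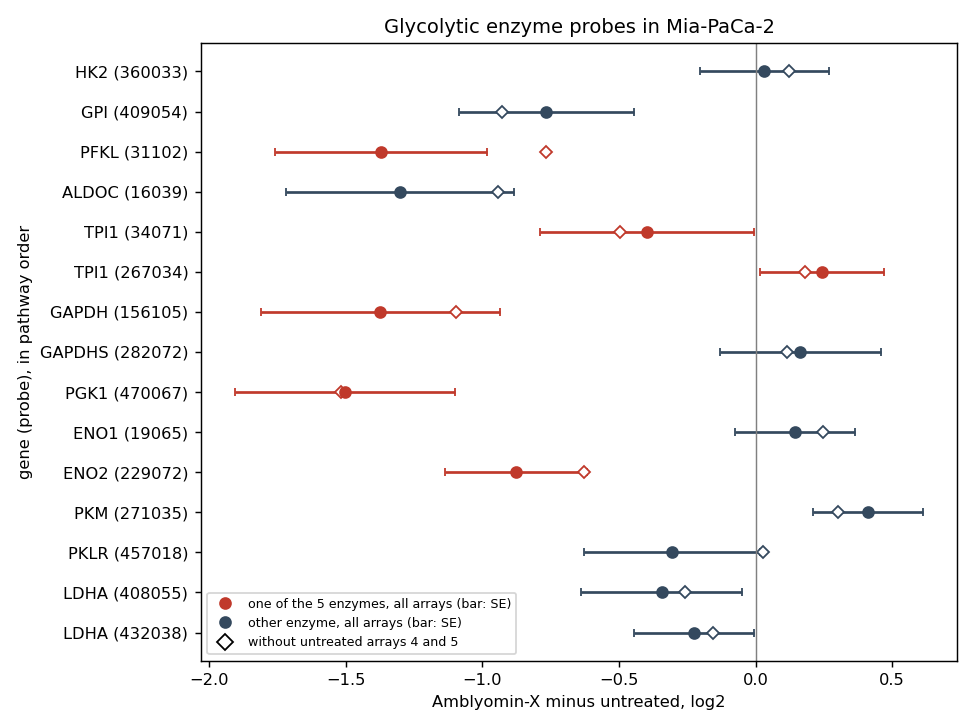
Change in Mia-PaCa-2 (Amblyomin-X minus untreated, log2) of every probe of a glycolytic enzyme, in pathway order from top to bottom. Red circles are the 5 enzymes described and dark circles other enzymes (bars are SE), and diamonds are the change without untreated arrays 4 and 5; values run from -1.50 for PGK1 to 0.41 for PKM.

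Genes around the pathway gave few values in Mia-PaCa-2, and none passed an adjusted p of 0.05. Of 14 glucose and lactate transport genes 2 had a probe, and both were below 0, with the lactate carrier chaperone BSG at -1.01 ± 0.62 (SE; -1.22 without untreated arrays 4 and 5) and the glucose transporter SLC2A10 at -0.77 ± 0.30 (-0.96 without them). Of 12 genes that control glycolytic flux 4 had a probe, 2 above and 2 below 0, with a median of 0.10 and, without untreated arrays 4 and 5, -0.03. Of 15 genes for the entry of pyruvate into the mitochondrion 8 had a probe, 3 above and 5 below 0, with a median of -0.15 (-0.17 without the 2 arrays). Among the parts of the pyruvate dehydrogenase complex, PDHA1 was at 0.27 ± 0.23 and PDHB at 0.40 ± 0.25 (-0.03 and 0.05 without the 2 arrays). Its other measured parts were below 0, DLAT at -0.61 ± 0.34, DLD at -0.58 ± 0.28 and PDHX at -0.24 ± 0.25. Without the 2 arrays these were at -0.31, -0.84 and -0.41. Of the rest of this list, MPC2 was at -0.07 ± 0.21, PDPR at 0.01 ± 0.16 and PDK3 at -1.10 ± 0.35. Without the 2 arrays MPC2 was at 0.16, PDPR at 0.01 and PDK3 at -1.12. By limma PDK3 alone of the 8 had an unadjusted p under 0.05, against 9.59% of all probes. Without the 2 arrays PDK3 and DLD had one, against 5.48%. DLD, PDHX, PDPR and PDK3 were named after their values had been seen. Of 9 pentose phosphate pathway genes 2 had a probe, PGLS at -0.10 ± 0.16 (-0.06 without the 2 arrays) and RPIA at 0.003 ± 0.24 (-0.33 without them). Of 14 gluconeogenesis and glycogen genes 6 had a probe, 1 above and 5 below 0, with a median of -0.20 (-0.24 without the 2 arrays). Over all probes 48.8% were below 0.

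Of 27 hypoxia response genes other than glycolytic enzymes 7 had a probe. Of these 2 were above and 5 below 0, against 48.8% of all probes below 0. The median of the 7 was -0.16, and -0.15 without untreated arrays 4 and 5. By limma 3 of the 7 had an unadjusted p under 0.05, against 9.59% of all probes, and none an adjusted one; without untreated arrays 4 and 5 it was 2 of 7, against 5.48%. The brightest were ERO1A, an oxidase of the endoplasmic reticulum, at -0.16 ± 0.27 (SE), the oxygen sensor EGLN1 at 0.16 ± 0.22, the mitophagy receptor BNIP3L at -1.32 ± 0.40 and the collagen hydroxylase subunit P4HA2 at -0.60 ± 0.20. Without the 2 arrays ERO1A was at -0.15, EGLN1 at -0.08, BNIP3L at -1.02 and P4HA2 at -0.36. The third with an unadjusted p under 0.05 was HIF1A itself, at -0.60 ± 0.22 (-0.50 without them), named after its value had been seen.

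Abundant housekeeping genes were measured as a yardstick for GAPDH. Of 32 listed 19 had a probe, 7 above and 12 below 0, against 48.8% of all probes below 0. The median of the 19 was -0.07, and -0.09 without untreated arrays 4 and 5. The 19 include the glycolytic enzymes ENO1, LDHA and PKM, already counted in the pathway list. They were not matched to GAPDH in level, with log2 means from 5.97 (GUSB) to 13.66 (HSPA8). The brightest were HSPA8 at 0.08 ± 0.28 (SE), ENO1 at 0.15 ± 0.22, the ribosomal protein RPLP1 at -0.06 ± 0.26 and the elongation factor EEF2 at -0.20 ± 0.19. Without the 2 arrays HSPA8 was at -0.03, ENO1 at 0.25, RPLP1 at 0.03 and EEF2 at -0.26. By limma 3 of the 19 had an unadjusted p under 0.05, against 9.59% of all probes, and none an adjusted one. Without the 2 arrays the count was 0 of 19, against 5.48%. The 3 were ACTG1, one of the probes most like GAPDH, at -1.36 ± 0.46, EEF1A1 at -1.07 ± 0.50 and TBP at 0.84 ± 0.33. Without the 2 arrays they were at -1.12, -0.62 and 0.54. EEF1A1 and TBP were named after their values had been seen. The summed level of the pancreatic and epithelial markers with a value, 7 of 20 (KRT18 lacked one on treated arrays 1 and 4 and on untreated arrays 1 and 4), was 1311 to 19767 on treated arrays, 10709 and 2277 on untreated arrays 5 and 4, and 1689 to 16293 on the other untreated arrays. Of 20 melanocyte markers RAB27A and SLC45A2 had a probe, and their sum was 473.3 to 692.7 on treated arrays, 224.8 to 329.0 on untreated arrays 4 and 5, and 343.2 to 643.4 on the other untreated arrays. The part of either list in the changes of the enzymes was not tested.

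In SK-MEL-28 neither enzyme changed by the test. No probe of the line passed an adjusted p of 0.05 by limma (0 of 7973, or 0%), and 446 (5.59%) had an unadjusted p under 0.05. Without treated arrays 3 and 5 the count was again 0 (0%), with 206 (2.61%) at an unadjusted p under 0.05. With the array number as a block it was 0 as well, with 857 (10.7%) at an unadjusted p under 0.05. Of the 3 enzyme probes 1 had a change below 0 with all arrays, against 57.4% of all probes, and 2 without those arrays, against 47.5%. PFKL probe 31102 had 212.9, 139.3, 170.1, 172.3 and 197.8 on treated arrays 1 to 5, against 109.5, 259.5, 184.8, 174.1 and 148.4 on untreated arrays 1 to 5. The treated values lay inside the untreated range. The change was 0.07 ± 0.24 (SE; 95% interval -0.45 to 0.586; limma adjusted p = 0.971), and 0.03 ± 0.29 without treated arrays 3 and 5. The second PFKL probe, 42075, which had no values in Mia-PaCa-2, had 150.8, 52.0, 82.0, 53.5 and 56.2 on treated arrays, against 101.8, 75.2, 121.2, 59.1 and 68.6 on untreated arrays. Its highest value was that of treated array 1, and 3 treated arrays were below every untreated one. The change was -0.19 ± 0.32 (95% interval -0.901 to 0.517; limma adjusted p = 0.938), and -0.46 without treated array 1. Over the 10 arrays the 2 PFKL probes had r = 0.14 (permutation p = 0.668, adjusted 0.886) and rho = 0.224 (permutation p = 0.557, adjusted 0.672). Without untreated arrays 1 and 2, the farthest from the median of probe 31102, r was 0.623. Without treated arrays 3 and 5 it was 0.197. So few arrays cannot show whether the 2 probes follow each other.

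GAPDH had 7505, 1404, 6710.5, 2383 and 11593 on treated SK-MEL-28 arrays 1 to 5, against 3311, 1522, 3572, 4729 and 3481 on untreated arrays 1 to 5. Treated arrays 1, 3 and 5 were above every untreated array and treated array 2 was below every one. The log2 mean was 12.15 ± 1.27 in treated and 11.61 ± 0.61 in untreated cells (SD, n = 5 each). The change was 0.54 ± 0.55 (SE; 95% interval -0.654 to 1.742; limma adjusted p = 0.879). Without the libraries labelled treated 3 and 5 it was -0.09 ± 0.54 (95% interval -1.308 to 1.124; limma adjusted p = 1), and without treated array 5 alone it was 0.21. The summed level of 7 measured housekeeping genes of 32 was 16162 to 19897 on treated arrays 3 and 5, 3026 to 14650.3 on the other treated arrays and 4081 to 6812 on untreated arrays. The summed level of the 3 measured pancreatic and epithelial markers of 20 was 1037 to 1225 on treated arrays 3 and 5, 177.4 to 217.3 on the other treated arrays and 151.4 to 429.6 on untreated arrays. Of the 4 brightest of these 7 genes, HSPA8 changed by 2.35 with all arrays and 0.27 without treated arrays 3 and 5, and RPLP1 by 0.79 and -0.34. EEF1A1 changed by 0.304 with all arrays and 0.300 without them, and ACTG1 by 0.24 and 0.03.

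**Figure D5:**
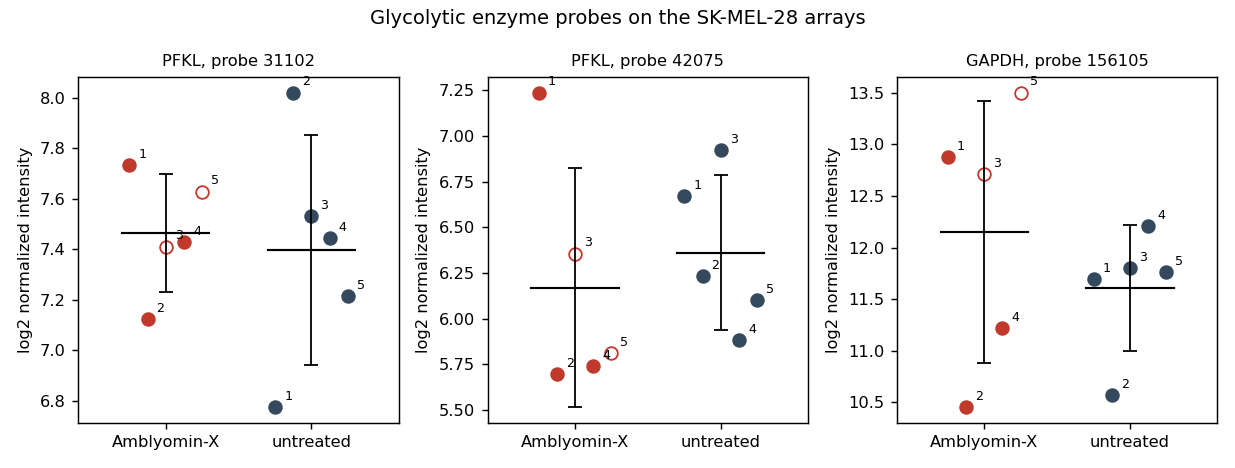
Log2 normalized intensity of the 3 enzyme probes on each SK-MEL-28 array, with Amblyomin-X arrays on the left and untreated arrays on the right of each panel. Numbers are array numbers, open circles are treated arrays 3 and 5, and lines with bars are the mean and SD; the treated GAPDH values are spread from 1404 to 11593 around the narrower untreated range.

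Other glycolytic enzymes in SK-MEL-28 were few. Of 22 listed 3 had a probe, PKLR at -0.34 ± 0.21 (SE), GAPDHS at 0.28 ± 0.22 and LDHA at -0.06 ± 0.17 (-0.11, 0.16 and 9e-05 without treated arrays 3 and 5), none with an unadjusted p under 0.05 by limma. Of 27 hypoxia response genes 8 had a probe, 4 above and 4 below 0, against 57.4% of all probes below 0. Without treated arrays 3 and 5, 2 of the 8 were above and 6 below 0, against 47.5%. The brightest were P4HA2 at -0.06 ± 0.19, KDM3A at -0.14 ± 0.19, HIF1A at 0.46 ± 0.35 and BNIP3L at 0.76 ± 0.98. Without the 2 arrays P4HA2 was at -0.18, KDM3A at -0.02, HIF1A at 0.46 and BNIP3L at -0.79. An unadjusted p under 0.05 by limma was found for 2 of the 8 genes, against 5.59% of all probes, the transcription factor BHLHE40 at 0.53 ± 0.21 and the carbonic anhydrase CA12 at -0.63 ± 0.24, both named after their values had been seen. Without the 2 arrays it was found for BHLHE40 (0.62) alone, against 2.61%. None passed an adjusted p of 0.05.

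The treatment effects of both lines can be set against each other for PFKL probe 31102 and GAPDH, as values with no test, since the effect in Mia-PaCa-2 picked the genes. The effect in SK-MEL-28 minus that in Mia-PaCa-2 was 1.44 ± 0.51 (SE) for PFKL and 1.92 ± 0.74 for GAPDH. Over the 5321 probes tested in both lines the median of this difference was 0.22. Without the 4 arrays that resembled both lines the differences were 0.80 ± 0.40 and 1.00 ± 0.78, and the median over the 5274 probes tested was 0.02.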

How the data were processed

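Labels, titles and protocols gave the groups and array numbers; all 6 untreated Mia-PaCa-2 arrays carry number 1 in their descriptions but 1 to 6 in their titles, which were used. Per the file headers, the authors deposited 1 linear intensity per probe and array, and a table of normalized intensities of the same probes; for reading the images, background correction and normalization the method was not given in the sources used here. Per the labels' protocols, biotin-labelled cRNA was detected with Cy5. In the deposited table the 12 arrays of Mia-PaCa-2 share 1 maximum (21001), as do the 10 of SK-MEL-28 (16529), and ranks equal those of the per-sample intensities (Spearman's rho of 1), as a quantile normalization within each line would leave them. Blank intensities and those at or below 0 were left out, and signal over background is not known. Since no background column was given, no background correction could be tried.

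Probes were named through the platform annotation given with the data: of 14257 probes 8051 had 1 symbol, 400 several and 5806 none here. The 5 enzymes and all gene lists were chosen with earlier results of these data known. All measured enzymes of the pathway list are named, and from each other list at most 4 genes with the highest mean level; exceptions are stated. A gene with several probes is represented in a list by its brightest one.

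After taking log2 of the normalized intensities, lmFit and eBayes of limma (version 3.58.1, R 4.3.3) were run per line (at least 3 arrays with a value per group; Benjamini-Hochberg over all probes, threshold 0.05). The script was tested on simulated data. The effects of both lines were compared in 1 fit over the probes tested in both. Alternatives left out arrays, added the array number as a block, weighted arrays, dropped the dimmest 25% of probes or those with a missing value, filled missing bright values, renormalized the per-sample intensities or added an offset of 50. Same-numbered arrays deviated together in SK-MEL-28 (r of 0.247 to 0.602, over 0.1 in 5 of 5 pairs). In 2 of these pairs each array was the best match of the other, so the numbers may pair the arrays there. The intervals given for SK-MEL-28 come from the fit without a block. No 2 arrays held the same values (the highest Spearman's rho between arrays was 0.946 for Mia-PaCa-2, and 0.942 for SK-MEL-28). Tables and figures were made under Python 3.11.15 (matplotlib 3.10.9; NumPy 2.4.6; pandas 2.3.3).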

Additional observations from a re-analysis of the deposited data

Results flagged for a closer look

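On a log2 scale, TPI1 probe 267034 stood at 14.36 on treated Mia-PaCa-2 array 2, apart from 13.95 on each of the other 3 treated arrays that had a value. In the per-sample intensities the same array read 128 times its median, within the 124 to 166 times of the 6 treated arrays, so the gap comes from the normalized table, where the probe held rank 1 among those with a value. ENO1 probe 19065 stood at 13.62 on treated Mia-PaCa-2 array 4, apart from 12.45 to 12.75 on the other 5. Both were found by the ratio of the gap to the range of the group. Of 40 groups of values examined 2 met this criterion, and chance alone gives about 1 in 20 groups. Both probes are among the brightest of the line, and treated array 4 had 13 blank intensities.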

How the results depend on the processing

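Of 189 values of the enzyme probes under alternative processing, 187 kept their direction and 2 reversed. Within 1.5 times the reported change were 155, and 34 were not. Dropping probes, or adding the block with all arrays, leaves the change of a kept probe as it is. These tallies therefore include values that could not differ. In Mia-PaCa-2 the change of PFKL probe 31102 was -0.76 without untreated arrays 4 and 5, -0.70 with the block as well and -0.77 with an offset of 50, and that of ENO2 was -0.44 with the offset. The change of TPI1 probe 267034 was 0.01 with quantile-normalized per-sample intensities. In SK-MEL-28 the change of GAPDH was -0.092 without treated arrays 3 and 5, and that of PFKL probe 31102 ran from -0.087 (without untreated array 1) to 0.224 (without untreated array 2) when 1 array was left out; the cause was not tested. The count of probes with an adjusted p under 0.05 by limma was 0 in both lines and for the difference between them under every alternative run, while counts at an unadjusted p under 0.05 ran from 636 to 1887 in Mia-PaCa-2, where 1887 were counted without untreated array 1, and from 206 to 857 in SK-MEL-28. The difference between the lines had 291 such probes, 157 without the 4 arrays that resembled both lines. With the array number as a block, the count in SK-MEL-28 was 0 after adjustment and 857 before, against 446 without the block, and GAPDH changed by 0.54 ± 0.39 (SE; limma adjusted p = 0.574), or by 0.03 with the block and without treated arrays 3 and 5. PFKL probe 42075 in SK-MEL-28 ran from -0.46 (without treated array 1) to -0.05 (without untreated array 3). In Mia-PaCa-2 the same numbers gave correlations of -0.187 to 0.437, above 0.1 in 3 of 6 pairs. In 1 pair each array was the best match of the other, so pairing was not settled there. With all arrays the block left each change as it was. The SE with the block was 0.24 for GAPDH (0.44 without it), 0.28 for PGK1 (0.40) and 0.26 for TPI1 probe 34071 (0.39). For PFKL it was 0.37 (0.39), for ENO2 0.26 (0.26) and for TPI1 probe 267034 0.23 (0.23). The blocked count was 0, and 1207 before adjustment. PFKL probe 31102 and ENO2 had no value in Mia-PaCa-2 without the dimmest 25% of probes, and TPI1 probe 267034 none among probes measured on every array. The number of arrays limits the precision, and for probes as dim as PFKL and ENO2 so does the unknown background.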
